A study of Mus musculus with 30 samples.

Results

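Gene expression was compared directly between mouse fibroblasts exposed to Antimycin A (3 libraries) and the same fibroblast line exposed to Clofilium tosylate (3 libraries). The pair was chosen by measured values, selected on the similar TPM levels that both compounds gave for genes of the integrated stress response, and the genes compared were those with at least 1 TPM in at least 3 of these 6 libraries, 12694 of the 29861 genes in the table. TPM, transcripts per 1000000 transcripts, is a level corrected for transcript length and scaled to the total of its library. The genes of the integrated stress response are therefore described below without a test, and the tests concern the other genes.

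The Antimycin A, Clofilium tosylate and DMSO cells came from CCG-HTA-1, a primary tail fibroblast line from UMHet3 mice, a genetically mixed stock, at 5 to 8 weeks of age and passage 4. The shared fit also holds 1 Dihydrorotenone library labelled 8 to 11 weeks. Every culture, controls included, grew at ambient oxygen in a pyruvate-free medium rich in glucose, and RNA was taken 48 hours after the compound was added. Total RNA was depleted of ribosomal RNA before sequencing. The solvent control DMSO had 6 libraries and gives the reference level beside each comparison, and 30 libraries in 9 groups make up the whole series. Doses are not used here. The libraries of a compound carry consecutive library numbers, so preparation order and compound cannot be told apart. All replicates are libraries of 1 cell line, and the p-values measure the spread between these samples, which may be technical.

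Antimycin A blocks complex III of the mitochondrial respiratory chain, which passes electrons from ubiquinol to cytochrome c. Clofilium tosylate is a quaternary ammonium compound known as a blocker of potassium channels and as a class III antiarrhythmic agent. In the integrated stress response, kinases that phosphorylate the initiation factor eIF2alpha slow general translation while favouring translation of the transcription factor ATF4, and mitochondrial faults are a known trigger of this pathway in cultured cells. ATF4 and its partners then raise genes for amino acid synthesis, amino acid uptake and tRNA charging.

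The 6 libraries were alike in overall composition. The listed genes summed to 92.7% to 93.7% of 1000000 TPM over the series, between 12570 and 12691 genes reached 1 TPM in the 6 libraries, and a larger share of the total came from the top 20 genes in Clofilium tosylate (17.6% to 18.4%) than in Antimycin A (16.0% to 16.7%). Depth cannot be read from TPM and is unknown. Replicates correlated across genes with r of 0.992 to 0.993 within Antimycin A and 0.991 to 0.992 within Clofilium tosylate, where genes are not independent replicates. Sytl3 lay just inside the expression filter, at 1.07, 0.759 and 1.001 TPM in Antimycin A and 1.033, 0.8208 and 0.4429 TPM in Clofilium tosylate, and Egfl8 lay just outside it, with a third-highest value of 0.9999 TPM. The fibroblast label matched its markers, since all 8 were expressed in all 6 libraries, with the lowest value at 119.1 TPM for Lum. Krt5, Krt14 and Krt1 of keratinocytes, Plin1 of adipocytes and Myod1 of skeletal muscle were listed at 0 in all 6 libraries. Other markers of these cell types were not absent, such as Fabp4 of adipocytes (16.1 to 17.95 TPM) and Krt10 of keratinocytes (1.016 to 2.01 TPM). Tek of endothelial cells (4.526 to 6.872 TPM) and Sox9 of cartilage (3.478 to 5.607 TPM) were also detected.

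Across the 12694 genes, 729 (5.74%) differed between the compounds in limma's test with Benjamini-Hochberg adjustment at 0.05, of which 541 (4.26%) were higher in Antimycin A and 188 (1.48%) were lower. Most differences were small. The median size among the 729 was 0.35 on the log2(TPM + 1) scale, and only 26 genes (0.205%) differed by at least 2-fold, 17 of them higher and 9 lower in Antimycin A. The 3 libraries of one compound did not overlap the 3 of the other for 3089 genes (24.3%). The median log2 difference of all genes was 0.04, and the share of called genes that were higher in Antimycin A depended on scaling: it was 74.2% as deposited and 62.0% when the top 20 genes were left out of the scaling, while median-ratio scaling gave 56.5%, and quantile normalization 51.5%. Without Antimycin A replicate 1 the number called was 342, and without Clofilium tosylate replicate 1 it was 455. Of 41 genes that passed the filter only through the libraries of 1 compound, 11 were among the 729.

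**Figure D1:**
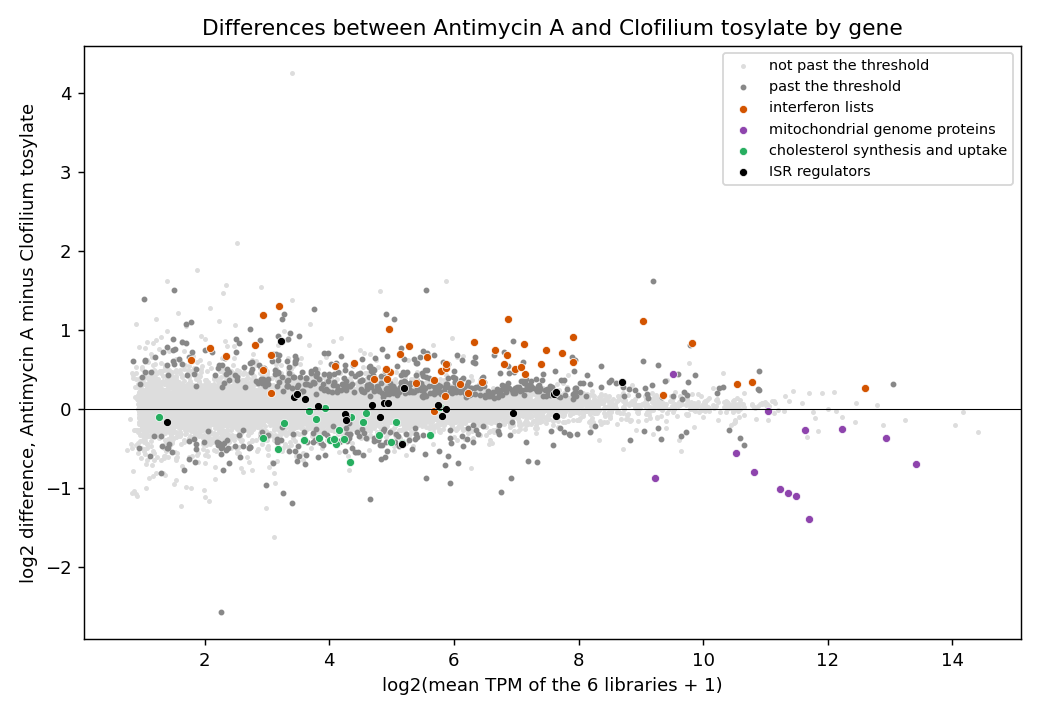
Each point is 1 of 12694 genes, with log2(mean TPM of the 6 libraries + 1) on the horizontal axis and the log2 difference, Antimycin A minus Clofilium tosylate, on the vertical axis. Dark grey points passed the threshold, and colours mark the interferon lists (above 0 with 1 exception, Irf1), the mitochondrial genome proteins (mostly below 0 at the right), the cholesterol genes (22 of 24 below 0) and the integrated stress response regulators (around 0).

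The integrated stress response regulators, the genes that the choice of pair rests on, had a median log2 difference of 0.04 over 23 genes, and their summed level was 1618 to 1688 TPM in Antimycin A, 1463 to 1610 TPM in Clofilium tosylate and 1012 to 1089 TPM in DMSO. Atf5, a transcription factor of the mitochondrial stress response, had 179.5, 200.3 and 196.6 TPM in the Antimycin A libraries and 195.8, 223.6 and 194.4 TPM in the Clofilium tosylate libraries, against 82.3 ± 2.83 TPM in DMSO (SD, n = 6). Chac1, which degrades glutathione, had 12.2, 13.1 and 14.3 TPM against 12.1, 15.8 and 11.2 TPM, with 3.12 ± 0.558 TPM in DMSO (SD, n = 6). For both genes the compounds' libraries interleaved and lay above the DMSO mean.

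Single regulators stood apart from this common level. Atf3, a stress-induced transcription factor, had 11.9, 10.2 and 11.2 TPM in Antimycin A against 5.19, 5.93 and 5.91 TPM in Clofilium tosylate, where it sat near the DMSO level of 5.40 ± 1.16 TPM (SD, n = 6). Trib3, a pseudokinase that feeds back on ATF4, lay the other way, with 28.8, 28.3 and 31.2 TPM in Antimycin A, 38.3, 43.9 and 40.0 TPM in Clofilium tosylate and 4.42 ± 0.716 TPM in DMSO (SD, n = 6). Neither gene had overlapping libraries. Atf4 itself had 212.0, 213.7 and 210.3 TPM in Antimycin A and 183.0, 185.1 and 180.6 TPM in Clofilium tosylate, against 133.9 ± 6.52 TPM in DMSO (SD, n = 6). Nupr1, a small stress-induced chromatin protein, had 488.4, 465.2 and 428.7 TPM against 351.5, 386.1 and 355.8 TPM. Ddit3, which encodes CHOP, differed by 0.18 on the log2 scale, from 199.8 to 215.9 TPM in Antimycin A and 175.8 to 185.4 TPM in Clofilium tosylate.

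A copy of the ATF4-type element, searched as TGATGNAA on both strands in the 250 bases upstream of gene starts, was found in 5 of the 20 regulators with a promoter window (25%), against 3.9% of 27025 genes. It was found in 2.4% of the genes tested, 1.7% of those called higher in Antimycin A and 4.7% of those called lower. The 150 bases upstream of Atf3 and Nupr1 are shown because these 2 regulators carry the element and were the highest in Antimycin A relative to Clofilium tosylate. They are RefSeq sequences of GRCm38.p6, 5′ to 3′ on the gene's strand, with the element in capitals. Atf3 covers chr1:191183334-191183483 on the minus strand and Nupr1 covers chr7:126625471-126625620 on the minus strand.
Atf3: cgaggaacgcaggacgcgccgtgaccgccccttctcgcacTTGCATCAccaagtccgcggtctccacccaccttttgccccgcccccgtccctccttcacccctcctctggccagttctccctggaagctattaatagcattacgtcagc
Nupr1: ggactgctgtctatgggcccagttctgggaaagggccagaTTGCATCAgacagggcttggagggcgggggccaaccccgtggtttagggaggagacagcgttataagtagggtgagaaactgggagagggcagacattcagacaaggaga

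**Figure D2:**
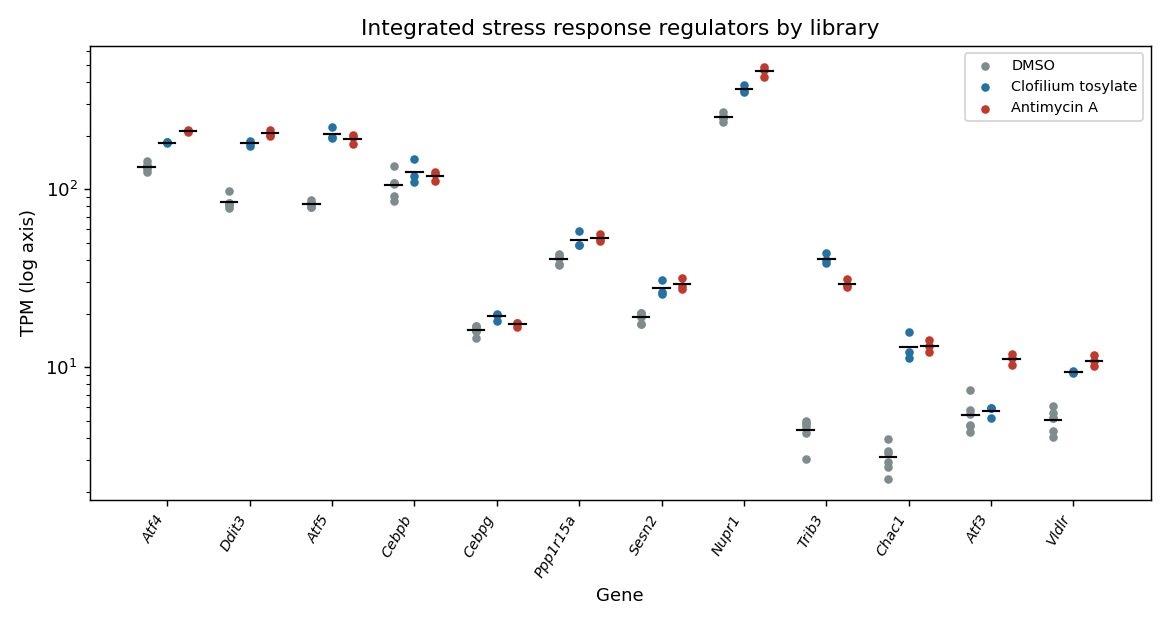
Points are libraries and bars are group means for 12 regulators of the integrated stress response, with TPM on a log axis. Antimycin A (red) and Clofilium tosylate (blue) lie together above DMSO (grey) for Atf5, Chac1, Ddit3 and Sesn2, while Trib3 is highest in Clofilium tosylate and Atf3 is high in Antimycin A alone of the 3 groups.

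The metabolic targets of the response were close in both compounds. The serine and one-carbon enzymes had a median log2 difference of −0.06 over 15 genes, the cytosolic aminoacyl-tRNA synthetases 0.05 over 20 and the amino acid transporters 0.02 over 17. Mthfd2, the mitochondrial folate dehydrogenase, had 19.5, 23.3 and 22.6 TPM in Antimycin A and 20.7, 22.9 and 22.3 TPM in Clofilium tosylate, against a DMSO mean of 6.62 TPM. Phgdh, the first enzyme of serine synthesis, had 28.1, 28.6 and 26.3 TPM against 29.7, 30.9 and 26.2 TPM, with a DMSO mean of 12.8 TPM. Libraries of the compounds interleaved for both enzymes. Asns, asparagine synthetase, ranged from 56.7 to 67.3 TPM in Antimycin A and from 56.0 to 60.1 TPM in Clofilium tosylate.

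Some members of these groups were apart without overlap, as were 24.3% of all genes. This held for 1 of 15 serine and one-carbon enzymes, 3 of 17 amino acid transporters and 5 of 20 cytosolic aminoacyl-tRNA synthetases. It also held for 4 of 14 proline, asparagine, glutamate and transsulfuration enzymes. Of the integrated stress response regulators described above, 9 of 23 were without overlap, and so were 3 of 6 tested mitokines, secreted signals of mitochondrial stress. The genes named next were picked from these lists for their separation. Pycr1, which makes proline in mitochondria, had 8.36, 6.07 and 7.59 TPM in Antimycin A and 10.2, 11.5 and 11.4 TPM in Clofilium tosylate, both below the DMSO level of 17.2 ± 2.11 TPM (SD, n = 6). Slc38a1, a glutamine transporter, had 14.8, 13.2 and 14.9 TPM against 10.2, 9.52 and 10.2 TPM, and Slc1a3, a glutamate transporter, had 18.3, 16.7 and 18.1 TPM against 25.8, 29.1 and 26.2 TPM. Among secreted signals of mitochondrial stress, Gdf15, a hormone that acts on appetite, had 21.3, 21.7 and 20.5 TPM in Antimycin A and 14.2, 15.9 and 14.4 TPM in Clofilium tosylate, with 5.06 ± 0.725 TPM in DMSO (SD, n = 6). Angptl6, another secreted factor, lay the other way, with 3.09 to 3.30 TPM against 4.15 to 5.26 TPM. Fgf21, a further secreted factor of this response, stayed below the filter, at no more than 0.751 TPM.

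Most listed genes induced by interferon were higher in Antimycin A. Interferons act through the kinases and STAT proteins downstream of their receptors, and the factor ISGF3 then binds an interferon-stimulated response element at target promoters. Of 30 interferon-stimulated genes, 24 were higher in Antimycin A and 0 were lower, against 4.26% and 1.48% of all genes, and the median log2 difference was 0.66 against 0.04 over all genes. All 30 had a higher mean in Antimycin A, and 29 had no overlap between the compounds' libraries, against 24.3% of all genes. The number called was 11 without Antimycin A replicate 1 and 15 without Clofilium tosylate replicate 1.

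Promoter stretches are shown for 4 of these genes because they carry the response element. The 4 are not the highest ranked, since Isg15 lies close to the list median of 0.66. Mx1 and Irf7, and also Ifit2, Ifi44l and Cxcl10, differ more than Isg15 and are not shown. They were looked up too, but no 150-base stretch with a match was found, for lack of a match or of a promoter window. The element was searched on both strands as TTTC, any 2 bases and TTTC again, in the 250 bases upstream of gene starts. It was found in 9 of the 20 listed interferon-stimulated genes that have a window (45.0%) and in 10.8% of the genes called higher in Antimycin A, against 2.4% of those called lower and 3.5% of all 27025 genes. Each line gives the 150 bases before the start, 5′ to 3′ on the gene's strand, from RefSeq in GRCm38.p6, with every match in capitals; overlapping matches run together. Rsad2 covers chr12:26456453-26456602 (minus strand), Ifit3 chr19:34583379-34583528 (plus), Isg15 chr4:156200819-156200968 (minus) and Bst2 chr8:71537473-71537622 (minus).
Rsad2: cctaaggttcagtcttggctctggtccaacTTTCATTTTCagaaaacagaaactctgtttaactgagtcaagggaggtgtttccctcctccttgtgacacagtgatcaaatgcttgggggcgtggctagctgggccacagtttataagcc
Ifit3: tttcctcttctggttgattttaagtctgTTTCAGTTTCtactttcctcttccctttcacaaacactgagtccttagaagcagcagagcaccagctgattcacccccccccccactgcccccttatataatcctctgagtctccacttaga
Isg15: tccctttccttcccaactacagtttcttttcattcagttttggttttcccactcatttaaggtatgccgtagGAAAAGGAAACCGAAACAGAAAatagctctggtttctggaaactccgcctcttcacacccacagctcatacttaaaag
Bst2: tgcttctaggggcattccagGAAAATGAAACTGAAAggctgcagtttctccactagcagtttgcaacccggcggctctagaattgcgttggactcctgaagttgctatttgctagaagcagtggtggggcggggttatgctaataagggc

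Rsad2 had the largest difference of the 30 listed interferon-stimulated genes. Rsad2 (ENSMUSG00000020641, chromosome 12, 26442746 to 26456452, GRCm38), which encodes the antiviral enzyme viperin, had 14.3, 11.8 and 10.1 TPM in Antimycin A, 3.92, 4.21 and 4.69 TPM in Clofilium tosylate and 1.15 ± 0.466 TPM in DMSO (SD, n = 6). All 3 Antimycin A libraries lay above all 3 Clofilium tosylate libraries, with a log2 difference of 1.30 ± 0.17 (SE; limma adjusted p = 3.53e-05). Its promoter above holds 1 match, starting 120 bases before the gene start. Ifit3, which encodes an antiviral RNA-binding family protein, had 784.9, 756.0 and 615.7 TPM against 318.6, 352.3 and 327.5 TPM, a log2 difference of 1.10 ± 0.21 (SE; limma adjusted p = 0.00174). Again no library overlapped, and the lowest Antimycin A library was replicate 3. Ifit3 shares 61.8% of its 31-base words with other genes, mainly its neighbour copy, so that the split between Ifit3 and Ifit3b is uncertain, but Ifit2, with 0.0% shared, differed by 1.01 ± 0.14 (SE; limma adjusted p = 4.42e-05).

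Bst2, which encodes the virion tether tetherin, had 1180.5, 1255.1 and 1053.4 TPM in Antimycin A and 612.4, 728.2 and 619.4 TPM in Clofilium tosylate, with 289.8 ± 39.1 TPM in DMSO (SD, n = 6), a log2 difference of 0.83 ± 0.12 (SE; limma adjusted p = 1.22e-04). Irf7, the transcription factor that amplifies the interferon response, had 333.2, 302.9 and 300.7 TPM against 144.4, 195.4 and 160.1 TPM, a log2 difference of 0.91 ± 0.15 (SE; limma adjusted p = 5.64e-04). For both genes the mean was lowest in DMSO, then Clofilium tosylate, then Antimycin A. Isg15, a ubiquitin-like modifier, had 270.5, 281.7 and 238.1 TPM against 145.2, 179.9 and 161.2 TPM. Its log2 difference was 0.70 ± 0.17 (SE; limma adjusted p = 0.0152), and the call was lost without Antimycin A replicate 1 (adjusted p = 0.0639), Antimycin A replicate 2 (0.0599) or Clofilium tosylate replicate 1 (0.0731). Mx1, a dynamin-like antiviral GTPase, had 11.4, 9.28 and 8.22 TPM against 2.96, 4.43 and 3.58 TPM, a log2 difference of 1.19 ± 0.16 (SE; limma adjusted p = 4.43e-05).

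Against DMSO, both compounds were above solvent for these genes. The log2 difference from DMSO was 2.62 for Rsad2 in Antimycin A and 1.32 in Clofilium tosylate, and for Irf7 it was 2.34 and 1.42. Both comparisons share the 6 DMSO libraries. The median over the 30 genes was 1.57 in Antimycin A and 0.82 in Clofilium tosylate.

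**Figure D3:**
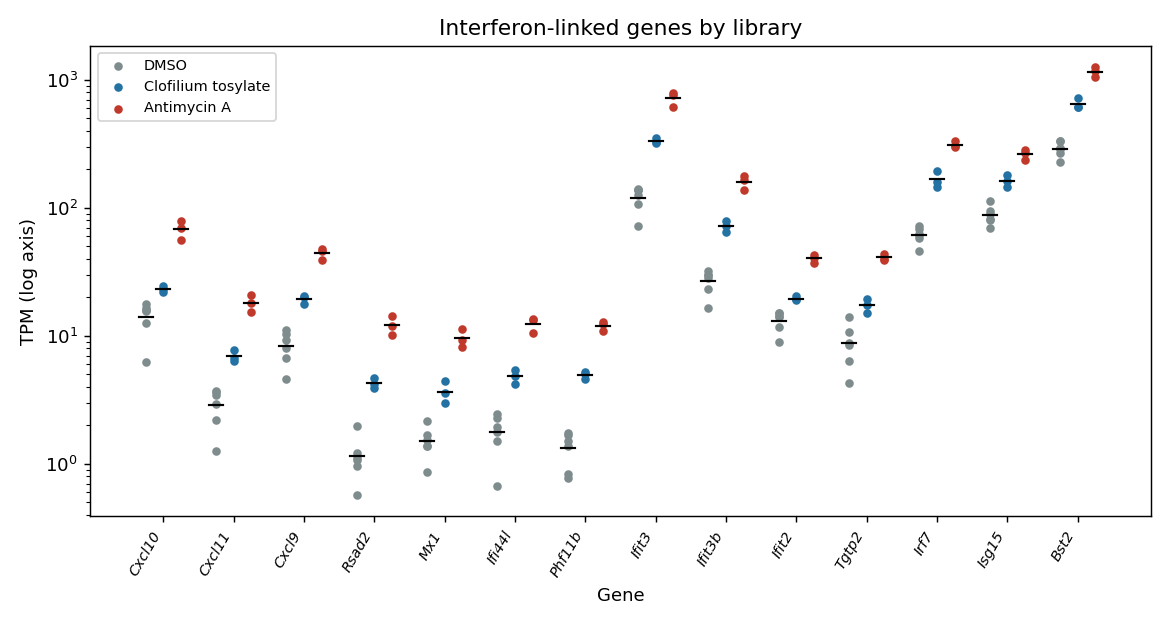
Points are libraries and bars are group means for 14 interferon-linked genes, with TPM on a log axis. For each gene the Antimycin A libraries (red) lie above the Clofilium tosylate libraries (blue), as in Rsad2 with 10.1 to 14.3 TPM against 3.92 to 4.69 TPM, and DMSO (grey) has the lowest mean.

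Of 19 tested interferon-inducible GTPases and antigen presentation genes, 12 were higher in Antimycin A and 0 lower, against 4.26% and 1.48% of all genes. Their median was 0.37. The number called was 6 in the fit of the 12 libraries of both compounds and DMSO. It was 5 without Antimycin A replicate 1, without Clofilium tosylate replicate 1 or without Clofilium tosylate replicate 3. Gbp3, a guanylate-binding GTPase, had 113.8, 99.99 and 90.8 TPM against 53.8, 59.8 and 54.5 TPM, and Irgm1, an immunity-related GTPase, had 191.7, 182.6 and 158.6 TPM against 97.7, 103.3 and 98.8 TPM. Their log2 differences were 0.84 ± 0.15 (SE; limma adjusted p = 0.00132) and 0.82 ± 0.12 (SE; limma adjusted p = 1.58e-04). B2m, the light chain of class I molecules, differed less, by 0.26 ± 0.08 (SE; limma adjusted p = 0.0363), from 6367 to 7057 TPM in Antimycin A and 5470 to 5807 TPM in Clofilium tosylate, and its call was lost after median-ratio scaling (adjusted p = 0.1286), in the 12-library fit and without any single replicate except Antimycin A replicate 3. Tgtp2, a T-cell-specific GTPase outside the list, differed by 1.2 ± 0.25 (SE; limma adjusted p = 0.00493), but shares 90.5% of its 31-base words with other genes and lost its call with a pseudocount of 0.1 (adjusted p = 0.0760).

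Of 13 nucleic acid sensors and their limiters, 2 were higher in Antimycin A, against 4.26% of all genes, and 1 was called in the 12-library fit or without Antimycin A replicate 1 or 2 or Clofilium tosylate replicate 1 or 3. Samhd1, which degrades deoxynucleotides, had 58.8, 55.4 and 52.1 TPM in Antimycin A and 34.1, 31.1 and 34.0 TPM in Clofilium tosylate, where it sat near the DMSO level of 34.2 ± 4.74 TPM (SD, n = 6), a log2 difference of 0.73 ± 0.11 (SE; limma adjusted p = 2.77e-04). Zbp1, a sensor of Z-form nucleic acid, differed by 0.57 ± 0.15 (SE; limma adjusted p = 0.0191), the call that those settings lost. The interferon beta gene Ifnb1 did not reach the filter, with at most 0.186 TPM in the 6 libraries. The 3 chemokines that attract T cells through CXCR3 were among the largest differences of all. Cxcl10 had 70.0, 78.6 and 55.9 TPM against 23.4, 24.6 and 21.9 TPM, a log2 difference of 1.498 ± 0.224 (SE; limma adjusted p = 1.37e-04). Cxcl9 differed by 1.13 and Cxcl11, annotated as a polymorphic pseudogene, by 1.26, both without overlap of libraries.

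Within 28 tested chemokine and inflammation genes, the 3 CXCR3 ligands were higher in Antimycin A, 4 genes were lower and 21 were not called. Over all genes, 4.26% were called higher and 1.48% lower. The median of the 28 was −0.03. Without Antimycin A replicate 1, 2 were called lower. Ccl20, which attracts cells that carry CCR6, had 12, 17.2 and 14.9 TPM in Antimycin A, 39.5, 30.3 and 31.5 TPM in Clofilium tosylate and 79.9 ± 13.9 TPM in DMSO (SD, n = 6), a log2 difference of −1.15 ± 0.15 (SE; limma adjusted p = 3.01e-05). Il1rn, the interleukin 1 receptor antagonist, had 3.98, 6.25 and 5.37 TPM against 13, 9.16 and 13.8 TPM, a log2 difference of −1.06 ± 0.25 (SE; limma adjusted p = 0.00996). In both genes every Antimycin A library lay below every Clofilium tosylate library. The Il1rn call was lost without Antimycin A replicate 1 (adjusted p = 0.0749) or without Clofilium tosylate replicate 3 (0.0535). Lcn2, an iron-siderophore carrier, differed by −0.47 ± 0.10 (SE; limma adjusted p = 0.00399) and Cxcl1, a neutrophil attractant, by −0.35 ± 0.09 (SE; limma adjusted p = 0.0276), the latter with its call lost without Antimycin A replicate 1 (adjusted p = 0.113), without Antimycin A replicate 3 (0.125), without Clofilium tosylate replicate 1 (0.152) or without Clofilium tosylate replicate 2 (0.0584), and also in the fit of only the 6 libraries (0.0676).

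Macrophage markers moved with these genes. Lyz2, the lysozyme of myeloid cells, had 40.1, 35.6 and 48.6 TPM in Antimycin A and 82.5, 76.1 and 80.7 TPM in Clofilium tosylate, with 157.0 ± 17.8 TPM in DMSO (SD, n = 6), a log2 difference of −0.94 ± 0.10 (SE; limma adjusted p = 1.79e-06). Adgre1, which encodes the surface protein F4/80, differed by −0.78, with means of 2.625 TPM against 5.195 TPM. Csf1r, the receptor for macrophage growth factors, differed by −0.45, with means of 1.266 TPM against 2.096 TPM, near the filter limit. So 3 of the 4 tested markers were lower in Antimycin A, against 1.48% of all genes. The Csf1r call was lost in the 6-library fit (adjusted p = 0.1034) and without Antimycin A replicate 1 or 2. Cd68 was not called, at 14.4 TPM against 13 TPM. Ptprc (mean of 0.298 TPM against 0.501 TPM) and Tyrobp (0.551 TPM against 0.00128 TPM) did not pass the filter. The 6 markers summed to 53 to 69 TPM in Antimycin A, 97.3 to 102.7 TPM in Clofilium tosylate and 157.1 to 213.6 TPM in DMSO. In these bulk samples, fewer cells of a type and less RNA per cell cannot be told apart, and the part of the markers in the differences of Ccl20, Il1rn, Lcn2, Cxcl1, Mmp9 and the interferon genes was not tested.

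Most protein transcripts of the mitochondrial genome were lower in Antimycin A. This genome encodes 13 subunits of the respiratory chain and ATP synthase, transcribed as long precursors from both strands and cut into single messages. Of the 13, 10 were lower in Antimycin A and 0 higher, against 1.48% and 4.26% of all genes, and their median log2 difference was −0.70. Their summed level was 33932 to 36697 TPM in Antimycin A, 47426 to 58212 TPM in Clofilium tosylate and 43261 to 50431 TPM in DMSO. The Antimycin A sum was the lowest of the 9 groups, and the next lowest group had 38535 to 41037 TPM.

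Differences were uneven along the genome. mt-Cytb (ENSMUSG00000064370, mitochondrial genome, 14145 to 15288), the mitochondrially encoded subunit of complex III, had 1685, 1720 and 1690 TPM in Antimycin A, 3846, 3151 and 3769 TPM in Clofilium tosylate and 3921 ± 291.1 TPM in DMSO (SD, n = 6). Its log2 difference was −1.07 ± 0.07 (SE; limma adjusted p = 1.09e-09), the smallest p-value of all genes tested. The Antimycin A libraries were within 35 TPM of each other, and Clofilium tosylate replicate 2 was the lowest of its group for mt-Cytb and for most of the 13. mt-Nd4 of complex I had 1561, 1591 and 1591 TPM against 3449, 2747 and 3439 TPM, a log2 difference of −1.01 ± 0.09 (SE; limma adjusted p = 2.16e-07). mt-Co1 of complex IV, the most abundant, had 8299, 8398 and 8085 TPM against 14490, 11784 and 14137 TPM, a log2 difference of −0.70 ± 0.07 (SE; limma adjusted p = 9.11e-07). The mt-Co1 difference was −0.29 after quantile normalization, and 63.9% of its 31-base words occur in other genes.

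At the other end were genes with no call. mt-Nd2 had 2073 to 2098 TPM in Antimycin A and 1878 to 2332 TPM in Clofilium tosylate, a log2 difference of −0.03 (limma adjusted p = 0.907), mt-Co2 differed by −0.26 (0.269) and mt-Nd3 by 0.43 (0.352), and all 3 had overlapping libraries. mt-Nd1, at −0.27 ± 0.07 (SE; limma adjusted p = 0.0213), was −0.02 after quantile normalization (adjusted p = 0.898) and lost its call in the 6-library and 12-library fits (0.104 and 0.0791) and without each single replicate except the second of either compound. mt-Co3, at −0.38 ± 0.09 (SE; limma adjusted p = 0.00937), lost its call without Antimycin A replicate 1, without Antimycin A replicate 3 or without Clofilium tosylate replicate 3 (adjusted p of 0.0501 to 0.06756), and in the fit of only the 6 libraries (0.0735).

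Nuclear copies of mitochondrial DNA limit the largest single value. mt-Atp6, a subunit of ATP synthase, had 1813, 1848 and 1782 TPM in Antimycin A and 4471, 4084 and 5937 TPM in Clofilium tosylate, a log2 difference of −1.39 ± 0.12 (SE; limma adjusted p = 4.63e-08), but 99.5% of its 31-base words occur in other genes. With the nuclear copy Gm10925 added, mt-Atp6 was 4524 TPM against 7440 TPM, a log2 difference of −0.71 ± 0.09 (SE; limma adjusted p = 2.58e-05). With copies added to each gene in this way, an alternative chosen after seeing the data, 11 of the 13 were lower, mt-Nd3 was higher and the median was −0.57. With copies added, mt-Co1 was at −0.50. mt-Nd4l and mt-Nd4 were as before, at −1.10 and −1.01, while mt-Co2 (−0.29) and mt-Nd3 (0.44) passed the threshold (adjusted p = 0.0194 and 0.00998). For mt-Cytb, only 6.6% of the words are shared. Whether counting used strand is not given in the sources used here, so mt-Nd6, which lies on the opposite strand, cannot be told from antisense RNA.

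**Figure D4:**
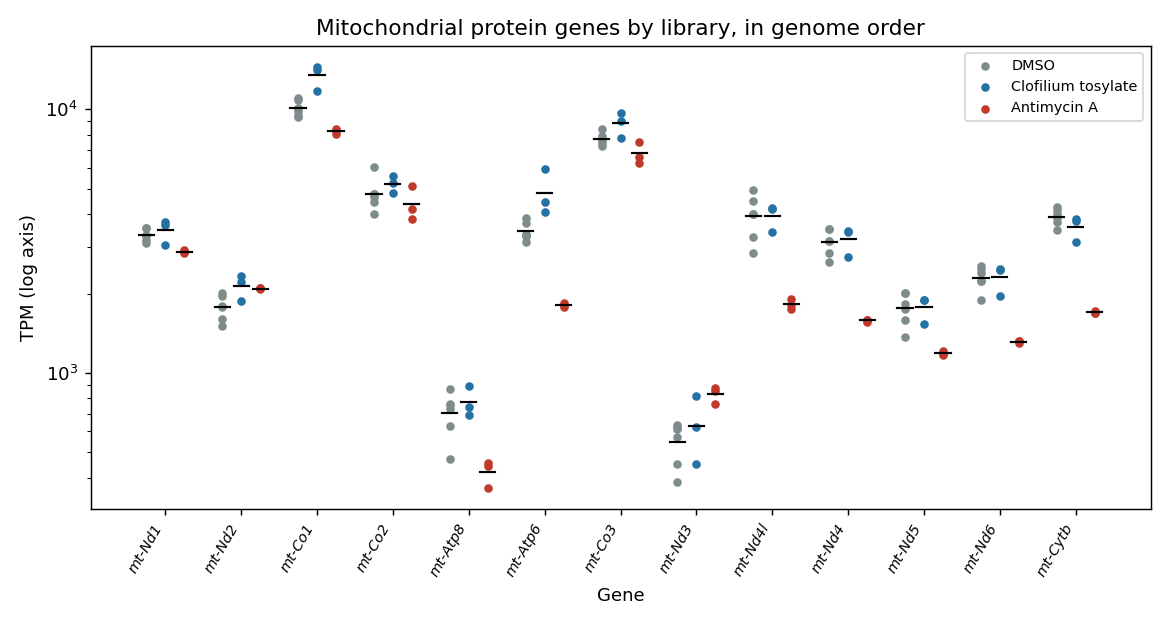
Points are libraries and bars are group means for the 13 protein genes of the mitochondrial genome in their order along it, with TPM on a log axis. Antimycin A (red) lies below Clofilium tosylate (blue) without overlap for 10 genes, by the widest margin for mt-Atp6, while mt-Nd2, mt-Co2 and mt-Nd3 overlap; DMSO is grey.

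No nuclear gene of the same complexes was called. Of 36 complex I genes, 16 nuclear complex III genes and 27 genes of complexes II, IV and V, 0 were called in limma's test in either direction, with medians of 0.01, 0.04 and 0.05, and 1, 2 and 5 of them had an unadjusted p under 0.05. Over all 12694 genes, 5.74% were called in that test, and 2439 had an unadjusted p under 0.05. Uqcrfs1, the iron-sulfur subunit of complex III, had 68.3, 68.3 and 66.6 TPM in Antimycin A and 62.1, 71.2 and 64.2 TPM in Clofilium tosylate, a log2 difference of 0.04 with a 95% confidence interval of −0.09 to 0.17. Cyc1, cytochrome c1, differed by 0.04 (95% confidence interval −0.10 to 0.18). In limma's test 0 were also called among 19 genes of mitochondrial DNA maintenance and transcription (median 0.02, 1 at an unadjusted p under 0.05) and among 19 ubiquinone-linked genes (median 0.00, 2 at that p). Of 19 mitochondrial proteostasis genes, 1 was called higher in Antimycin A, against 4.26% of all genes. It was Afg3l2, a subunit of the inner membrane m-AAA protease, with 63.6, 58.0 and 64.6 TPM against 50.8, 52.2 and 50.9 TPM. Its log2 difference was 0.27 ± 0.06 (SE; limma adjusted p = 0.0116), and the call was lost without Antimycin A replicate 1 or 3. Chchd10, a protein of the intermembrane space, had 57.2 to 64.8 TPM in Antimycin A and 43.4 to 57.0 TPM in Clofilium tosylate, against 8.30 TPM in DMSO, and its log2 difference of 0.32 (95% confidence interval −0.07 to 0.71) was not called.

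The extremes among called genes in both directions were genes outside the naming rule, chosen after their values were seen. The most negative was Gm10233, a processed pseudogene on chromosome 14, with 1.48, 0 and 4.71e-07 TPM in Antimycin A and 6.03, 7.46 and 7.90 TPM in Clofilium tosylate, a log2 difference of −2.58 ± 0.67 (SE; limma adjusted p = 0.0202). All of its 31-base words occur in other genes, Timm23 among them, so its value is uncertain. The most positive was a predicted gene. Gm20594 (ENSMUSG00000096887, chromosome 6, 79817916 to 79818364) had 854.3, 966.6 and 838.2 TPM in Antimycin A, 313.8, 284.4 and 271.8 TPM in Clofilium tosylate and 222.5 ± 31.5 TPM in DMSO (SD, n = 6), a log2 difference of 1.61 ± 0.13 (SE; limma adjusted p = 3.73e-08). Of its 31-base words, 10.0% occur in other genes, among them the mitochondrial ribosomal RNA gene mt-Rnr2, which is not analysed here. Its part in the Gm20594 value was not tested.

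Of 23 genes of glycolysis and glucose uptake, 8 were lower in Antimycin A, 1 was higher and the median was −0.19, against 1.48% and 4.26% of all genes. The lower calls numbered 4 in the 12-library fit, 4 without Antimycin A replicate 1, 3 without Antimycin A replicate 2, 4 without Clofilium tosylate replicate 1 and 5 without Clofilium tosylate replicate 3. Pfkl, the liver-type phosphofructokinase, had 44.5, 39.0 and 46.3 TPM in Antimycin A and 62.6, 65.1 and 61.4 TPM in Clofilium tosylate, near the DMSO level of 67.7 ± 3.16 TPM (SD, n = 6), a log2 difference of −0.54 ± 0.09 (SE; limma adjusted p = 5.74e-04). Ldha, which reduces pyruvate to lactate, had 386.9, 393.2 and 400.4 TPM against 529.1, 508.4 and 513.2 TPM, a log2 difference of −0.39 ± 0.09 (SE; limma adjusted p = 0.0130), and its call was lost without Antimycin A replicate 1 (0.0577) or Clofilium tosylate replicate 1 (0.0517). Ldhb, the other main lactate dehydrogenase chain, was the gene that was higher, with 66.0 to 69.5 TPM against 53.6 to 57.9 TPM. Pdk1, the kinase that holds back pyruvate dehydrogenase, differed by −0.61 ± 0.14 (SE; limma adjusted p = 0.0107), with its call lost without Antimycin A replicate 2 (0.0592).

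Outside glycolysis, 5 of 17 targets of the hypoxia-inducible factors were lower in Antimycin A and 0 higher, with a median of −0.26, against 1.48% of all genes called lower. Adm, which encodes the vasodilator peptide adrenomedullin, had 71.0, 67.4 and 69.6 TPM in Antimycin A, 135.1, 165.4 and 136.0 TPM in Clofilium tosylate and 256.2 ± 44.6 TPM in DMSO (SD, n = 6), a log2 difference of −1.05 ± 0.11 (SE; limma adjusted p = 1.86e-06). The 3 groups were in separate ranges of the mean, with Antimycin A lowest. P4ha2, a collagen prolyl hydroxylase, and Egln1, an oxygen sensor that marks the factor for breakdown, differed by −0.37 and −0.26, and the Egln1 call was lost in the 6-library (adjusted p = 0.0834) and 12-library (0.0735) fits. Without single replicates the number called in this group was between 1 (Antimycin A replicate 2) and 3 (Clofilium tosylate replicate 1 or 2), with 2 without Antimycin A replicate 1 or Clofilium tosylate replicate 3.

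The transcription factor SREBP2 is known to raise cholesterol synthesis and uptake genes when membrane sterol is low. Of 24 such genes, 11 were lower in Antimycin A, 0 higher and 13 not called, with a median of −0.34, against 1.48% of all genes called lower. The count was 6 in the 6-library fit, 4 in the 12-library fit and 6 without Clofilium tosylate replicate 1. Hmgcs1, an early enzyme of the pathway, had 27, 26.3 and 25.5 TPM in Antimycin A against 38.3, 31.8 and 36.4 TPM in Clofilium tosylate, and Sqle, squalene epoxidase, had 14.8, 16.0 and 15.2 TPM against 22.2, 18.8 and 20.2 TPM. Their log2 differences were −0.42 ± 0.08 (SE; limma adjusted p = 0.00250) and −0.39 ± 0.07 (SE; limma adjusted p = 9.27e-04). Both were above these levels in DMSO, at 55.6 and 28.7 TPM. Of 13 fatty acid synthesis genes, the desaturases Scd1 (−0.35) and Scd2 (−0.22) were lower, with no call left in the 12-library fit or without Antimycin A replicate 2 or Clofilium tosylate replicate 1 and 1 without Clofilium tosylate replicate 3. Of 8 liver X receptor targets, 0 were called in limma's test and 2 had an unadjusted p under 0.05.

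Of 34 genes of lysosome and autophagy, 11 were higher in Antimycin A and 0 lower, with a median of 0.13, against 4.26% of all genes called higher. The 12-library fit left 3 called and the 6-library fit 7, quantile normalization left 6 and median-ratio scaling 7, and 7 were called without Antimycin A replicate 1 or 3. Atp6v0d2, a subunit of the acidifying proton pump, had 51.9, 47.7 and 48.6 TPM in Antimycin A, 35.0, 29.2 and 34.1 TPM in Clofilium tosylate and 16.7 ± 3.29 TPM in DMSO (SD, n = 6), a log2 difference of 0.58 ± 0.12 (SE; limma adjusted p = 0.00448). Npc2, which carries cholesterol inside lysosomes, had 597.9, 595.1 and 553.5 TPM against 470.1, 498.9 and 489.6 TPM, a log2 difference of 0.26 ± 0.04 (SE; limma adjusted p = 3.03e-04). Sqstm1, the autophagy receptor p62, differed by 0.27 ± 0.06 (SE; limma adjusted p = 0.00544). The 12-library fit lost the calls of Atp6v0d2 (adjusted p = 0.0616) and Sqstm1 (0.0569). Rragd, a GTPase that carries amino acid signals to mTORC1 at the lysosome, was not on the list and was chosen after its values were seen. It had 10.5, 6.39 and 8.93 TPM against 4.29, 4.13 and 4.16 TPM, a log2 difference of 0.86 ± 0.15 (SE; limma adjusted p = 5.74e-04).

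Of 15 tested contractile and YAP-linked genes, 6 were lower in Antimycin A, against 1.48% of all genes, and all 15 had a lower mean, with a median of −0.43. Of the 15, 3 were called without Antimycin A replicate 1, Antimycin A replicate 2, Clofilium tosylate replicate 2 or Clofilium tosylate replicate 3. Acta2, the smooth muscle actin of myofibroblasts, had 76.8, 84.3 and 90.6 TPM in Antimycin A, 151.0, 168.5 and 146.8 TPM in Clofilium tosylate and 250.2 ± 42.8 TPM in DMSO (SD, n = 6), a log2 difference of −0.88 ± 0.16 (SE; limma adjusted p = 0.00123). Ccn2, a matricellular growth factor, had 30.5, 31.1 and 34.8 TPM against 54.6, 65.5 and 60.5 TPM, a log2 difference of −0.88 ± 0.22 (SE; limma adjusted p = 0.0178). Both genes were without overlap between the compounds, but the Ccn2 call was lost without any single replicate except Antimycin A replicate 3 and Clofilium tosylate replicate 1, and with a pseudocount of 0.1 (adjusted p = 0.101).

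Of 19 collagens, Col11a1, Col3a1 and Col12a1 were lower in Antimycin A, against 1.48% of all genes, with a median of −0.19. Without a single replicate other than Antimycin A replicate 3, 0 to 1 of them were called. Of 25 other matrix and crosslinking genes, Dcn and Loxl2 were lower, against 1.48% of all genes. None of the 25 was called without Antimycin A replicate 1 or Clofilium tosylate replicate 1, and 1 was without any other single replicate except Antimycin A replicate 3. Of 20 proteases and inhibitors, 3 were higher in Antimycin A and 2 were lower, against 4.26% and 1.48% of all genes. Plau, the protease urokinase, was higher, with 44.8, 42.9 and 42.2 TPM in Antimycin A against 31.8, 27.8 and 33.8 TPM in Clofilium tosylate, a log2 difference of 0.47 ± 0.09 (SE; limma adjusted p = 0.00317). Mmp9, a gelatinase also made by macrophages, had 115.5, 122.1 and 134.1 TPM against 195.4, 203.1 and 195.7 TPM, a log2 difference of −0.68 ± 0.10 (SE; limma adjusted p = 1.71e-04), beside the lower macrophage markers given above. In the 12-library fit or without Antimycin A replicate 3, 1 of the 20 was called higher.

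Further genes under the naming rule came from other functions. Dio3, the deiodinase that inactivates thyroid hormone, had 6.01, 6.28 and 4.17 TPM in Antimycin A, 12.7, 14.8 and 13.7 TPM in Clofilium tosylate and 61.9 ± 14.7 TPM in DMSO (SD, n = 6), a log2 difference of −1.2 ± 0.17 (SE; limma adjusted p = 9.86e-05). Agtr2, the type 2 angiotensin receptor, had means of 4.36 ± 0.469 TPM (SD, n = 3), 9.44 ± 0.597 TPM (SD, n = 3) and 27.3 ± 2.04 TPM (SD, n = 6) in the same order. Both genes were lowest in Antimycin A and highest in DMSO. Cd24a, a surface glycoprotein, was higher, at 7.83 ± 0.452 TPM (SD, n = 3) against 3.41 ± 0.550 TPM (SD, n = 3) in Clofilium tosylate and 2.02 TPM in DMSO, a log2 difference of 1.01 ± 0.13 (SE; limma adjusted p = 3.53e-05). Phf11b and Ifi44l, interferon-linked genes outside the lists, completed the higher set, at 1.13 and 1.2 on the log2 scale, and the Phf11b call was lost with a pseudocount of 0.1 (adjusted p = 0.0769).

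On the list for potassium channels, the class that Clofilium tosylate is known to act on, no gene for a channel pore was called. Of 26 genes, 11 passed the filter and 1 was called lower in Antimycin A, against 1.48% of all genes. It was Kctd12, a channel-domain protein rather than a pore, with 31.9, 30.4 and 35.3 TPM in Antimycin A and 44.2, 41.9 and 42.9 TPM in Clofilium tosylate (limma adjusted p = 0.0134). The Kctd12 call was lost without Antimycin A replicate 1 or 2 or Clofilium tosylate replicate 1. Kcnk2, the lowest of the 11 at −0.42, was not called. Kcnh2, the cardiac channel that shapes repolarisation, was at 0.608 to 1.44 TPM over the 6 libraries, and its log2 difference of 0.05 had a 95% confidence interval of −0.37 to 0.47.

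Nucleotide synthesis had 3 of 22 genes higher in Antimycin A, against 4.26% of all genes, and 1 after quantile normalization. Umps, which completes pyrimidine synthesis downstream of the ubiquinone-linked enzyme DHODH, had 21.4, 20.8 and 19.9 TPM against 16.9, 16.6 and 16.8 TPM, a log2 difference of 0.29 ± 0.05 (SE; limma adjusted p = 0.00161). Dhodh itself was not called, at 0.13 with a 95% confidence interval of −0.17 to 0.43. Of 28 NRF2 targets, 3 were higher, against 4.26% of all genes. Among them was Gsta4, a glutathione transferase that clears lipid aldehydes, with 284.5, 299.6 and 265.4 TPM against 217.6, 189.2 and 201.9 TPM (0.48 ± 0.09, SE; limma adjusted p = 0.00134). Ftl1, the ferritin light chain, was also higher, with 9257 to 9552 TPM against 7342 to 7695 TPM (0.31 ± 0.07, SE; limma adjusted p = 0.00550). In the 12-library fit 1 of the 28 was called, and the Ftl1 call was lost (adjusted p = 0.0717). The Ftl1 difference was 0.58 after quantile normalization. Among 18 p53 targets other than Gdf15, 3 were higher, against 4.26% of all genes. Pmaip1, an activator of apoptosis, was 1 of them, at 0.43. None of the 18 was called in the 12-library fit or without Clofilium tosylate replicate 3, and 1 was called higher after quantile normalization or without Antimycin A replicate 1 or 3 or Clofilium tosylate replicate 1 or 2.

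Chaperone groups had small differences. Of 22 genes of the endoplasmic reticulum unfolded protein response, 4 were higher, against 4.26% of all genes. These were Calr, Hsp90b1, Pdia3 and Pdia4, all folding proteins of the reticulum lumen, higher by 0.16 to 0.21. After quantile normalization or in the 6-library fit 0 of the 22 were called, and 1 after median-ratio scaling or in the 12-library fit. Of the 22, 0 were called without Antimycin A replicate 1, 1 without Antimycin A replicate 3 or Clofilium tosylate replicate 3, and 2 without Clofilium tosylate replicate 1 or 2. Of 17 heat shock genes, 2 were higher, Hspb1 (0.30) and Hspb8 (0.26), against 4.26% of all genes. Of these 17, 1 was called after quantile normalization or median-ratio scaling, in the 6-library and 12-library fits, or without Antimycin A replicate 1 or 2 or Clofilium tosylate replicate 3. In the replication and mitosis list 23 of 32 genes passed the filter and 0 were called in limma's test and 8 had an unadjusted p under 0.05, with a median of 0.13. Mki67, the proliferation marker, did not exceed 0.348 TPM in the 6 libraries. Among 21 genes of TGF-beta and BMP signalling, 1 was called higher, Tgfb2, at 0.29, against 4.26% of all genes. The Tgfb2 call was lost in the 6-library and 12-library fits and without Antimycin A replicate 1 or 3 or Clofilium tosylate replicate 1 or 2. Among 12 insulin-like growth factor genes, 6 metallothionein and zinc genes and 16 mitochondrial aminoacyl-tRNA synthetases, 0 were called in limma's test, and 2, 2 and 4 had an unadjusted p under 0.05.

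**Figure D5:**
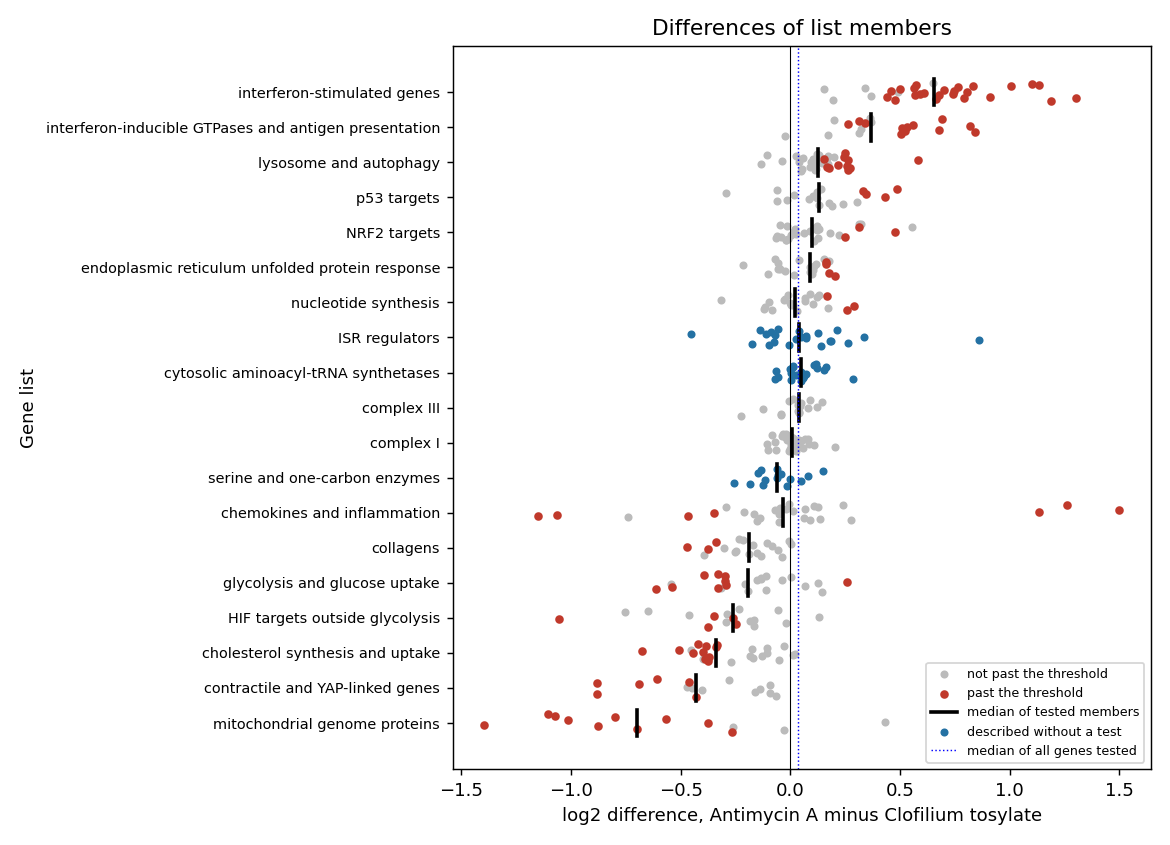
Each row is a gene list and each point a tested member, placed by its log2 difference, Antimycin A minus Clofilium tosylate; black bars are list medians and the dotted line is the median of all genes tested. Red points passed the threshold and blue points belong to the integrated stress response lists, which have no test; medians run from 0.66 for interferon-stimulated genes to −0.70 for the mitochondrial genome proteins.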

How the data were processed

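RNA from 30 libraries of mouse tail fibroblasts was analysed from 1 table of 29861 genes that the authors deposited as TPM. Per the submitters' processing notes, the tools included FastQC and kallisto 0.43.1, and mm10 is named. Kallisto reports estimated abundances; the index and strand setting are not given in the sources used here. Symbols and positions were matched to GENCODE M21 (GRCm38) for 29505 genes. Values were used as log2(TPM + 1), which understates differences of low genes. All 30 libraries were fitted with 1 mean per group in limma 3.58.1 (R 4.3.3; empirical Bayes with an intensity trend, 21 residual degrees of freedom), and the contrast Antimycin A minus Clofilium tosylate was adjusted by Benjamini-Hochberg over 12694 genes. The fit was tested on simulated data. TPM holds no depth, so precision rests on replicate spread alone. Named genes are the 12 largest called differences in each direction with at least 5 TPM in the higher group, no overlap of libraries and an established symbol, plus members of 39 gene lists. Members and lists were chosen with earlier results of these data known. Alternatives changed the pseudocount, filter, scaling, libraries fitted, trend and block, or left out replicates. Shared sequence was counted in 31-base words of reference transcripts. Some items withheld for evaluation are not reported here.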

Additional observations from a re-analysis of the deposited data

Results flagged for a closer look

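In the 6 DMSO libraries, 70 genes were examined for a library far from the others, and 2 had one by Dixon's criterion, where chance gives about 1 in 20. Afg3l2, the m-AAA protease subunit, had 42.87 TPM in DMSO replicate 4, while the other DMSO libraries had 36.68 to 38.18 TPM. Zbp1, the nucleic acid sensor, had 27.14 TPM in DMSO replicate 6, while the others had 39.1 to 44.81 TPM. Groups of 3 libraries were not examined in this way.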

How the results depend on the processing

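Of 729 called genes, 541 were higher and 188 lower in Antimycin A. Lower calls numbered 289 after median-ratio scaling and 342 after quantile normalization. Higher calls numbered 328 in the fit of only the 6 libraries and 359 after rescaling without the 13 mitochondrial protein genes, an alternative chosen after seeing the data. The fit of 12 libraries, with DMSO, called 366, 244 higher and 122 lower. With the replicate number as a block the 6 libraries gave 189 calls, 133 higher and 56 lower, and the 30 libraries gave 917; the cause was not tested. Deviations of same-numbered Antimycin A and Clofilium tosylate libraries correlated at 0.00735, −0.05 and 0.03. Antimycin A replicates 1 and 2 correlated best with a Clofilium tosylate library of another number. These values show no pairing by number between these compounds, and pairing across the other groups was not tested. Leaving out single replicates gave 342 to 530 calls, 236 to 442 higher and 88 to 141 lower.

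List medians moved beyond their replicate spread as follows; those of complexes I and III, with no gene called, changed sign under quantile normalization. Replication and mitosis was 0.19 at a pseudocount of 0.1 and 0.26 at a mean of at least 5 TPM. Under that filter mitokines were at 0.23, a change of sign from −0.10 as reported, and potassium channels were at −0.37. Without a filter, contractile genes were at −0.28 and the Dlk1-Dio3 domain at −0.18. Under median-ratio scaling, mitochondrial proteostasis was 0.0315, NRF2 targets 0.0706 and lysosome 0.0966. Under quantile normalization these were 0.00417, 0.0556 and 0.0975, with synthetases at 0.00531, complex I at −0.0459 and complex III at −0.0136. Without the 20 most abundant genes, NRF2 targets were 0.0735 and lysosome 0.0995. Without the 13 mitochondrial genes these were 0.0731 and 0.0990, and proteostasis 0.0339. Summing nuclear copies gave −0.57 for the mitochondrial list. Without single replicates, medians ranged from 0.07415 to 0.09465 for NRF2 targets, −0.26 to −0.12 for glycolysis and −0.36 to −0.28 for cholesterol. Depth is unknown, and 3 libraries a group limit what can be called.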
